A study of Homo sapiens with 8 samples.

Results

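Open chromatin was examined at 8 genes for matrix proteoglycans: VCAN (versican), ACAN (aggrecan), DCN (decorin), BGN (biglycan), ASPN (asporin), LUM (lumican), FMOD (fibromodulin) and HSPG2 (perlecan). The genes were chosen by name and not by a measured value, as 8 of 20163 protein-coding genes. For each gene, peaks in the gene body and in 50 kb on either side were taken from 8 ATAC-seq peak lists on the hg19 (GRCh37) build. Overlapping peaks of the lists were merged, which gave 61 regions at these genes. Of them, 43 had a peak in at least 2 libraries, against 75501 such regions in the whole genome.

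ATAC-seq reads out open chromatin through a transposase that inserts sequencing adapters where DNA is exposed. All samples were LX-2 cells, a hepatic stellate cell line that was immortalised from human cells and is labelled as wild type, so that every value comes from a single cell line. The cells grew on polyacrylamide gels with a stiffness near 2 kPa (soft) or near 40 kPa (stiff) and were taken after 2 days (D2) or 4 days (D4), with 2 replicate libraries for each of the 4 combinations, written D2 soft, D4 soft, D2 stiff and D4 stiff. The labels do not say whether the replicates were separate cultures, so the spread between them may be technical.

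Proteoglycans are core proteins that carry glycosaminoglycan chains. Versican and aggrecan are large proteins that bind hyaluronan and fill the space between fibres, while decorin, biglycan, asporin, lumican and fibromodulin are small leucine-rich proteins, most of which bind collagen and affect how its fibrils assemble. Perlecan is a heparan sulfate proteoglycan of basement membranes. Activated stellate cells are a main source of matrix in the injured liver, and versican, decorin, biglycan and lumican are known components of scarred liver.

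The lists held between 29789 and 72840 peaks, and depth estimated from them was 0.779 to 3.15 fragments per kb of genome, lowest in D2 soft replicate 1. On each day the stiff lists were the longer ones. A region missing from a list is not shown to be closed. Of 11 stellate cell and fibroblast markers, 3 had a promoter peak in every library (PDGFRB, COL1A1 and ACTA2), 7 in some and 1 (DES) in none. Of the 7, PDGFRA, COL1A2 and NGFR had one in 7 libraries, HAND2 and RELN in 6, and COL3A1 and LRAT in only 1. Of 7 hepatocyte markers, 0 had one in every library and 4 had none in any, ALB and HNF4A included, and the defining leukocyte gene PTPRC had none. The hepatocyte markers TTR and CYP3A4 had one in 2 libraries and SERPINA1 in 1. CD68 and KRT7, listed as leukocyte and epithelial markers, had one in every library. Of 4 endothelial markers, KDR had one in 7 libraries, CDH5 in 4, TEK in 2 and STAB2 in 0, and of the epithelial markers EPCAM had one in 6, CDH1 in 5 and KRT19 in 0. EPCAM was found in both D2 stiff and neither D2 soft library, and the hepatocyte gene CYP3A4 in both D4 stiff and neither D4 soft library. All libraries were made from LX-2 cells, and what peaks at markers of other cell types reflect was not tested.

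The sequences below are from the GRCh37 genome, plus strand for regions and gene strand for promoters, and show the regions on which the results turn. Regions are named by the distance of the summit of their best-ranked peak from the 5′ end of the gene, and each is shown as the 121 bases centred on that summit. Capitals mark 3 motifs on either strand: TGAGTCA or TGACTCA, the site of the AP-1 family; GGAATG, the core of the TEAD site; and GGGCGG, the GC box. VCAN +2.0 kb (chr5:82769378-82769498) and HSPG2 +6.0 kb (chr1:22257743-22257863) were the highest-ranked regions by −log10 p, ASPN -23.9 kb (chr9:95268634-95268754) was also found in every library, BGN +38.6 kb (chrX:152798997-152799117) was found in the stiff libraries, and LUM +12.4 kb (chr12:91492801-91492921) was the most often found region at LUM and DCN.
VCAN +2.0 kb: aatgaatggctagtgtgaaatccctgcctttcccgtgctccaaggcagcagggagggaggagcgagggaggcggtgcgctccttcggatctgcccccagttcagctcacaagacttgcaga
HSPG2 +6.0 kb: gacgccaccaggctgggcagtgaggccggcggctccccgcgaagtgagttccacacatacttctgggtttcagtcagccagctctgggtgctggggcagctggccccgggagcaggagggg
ASPN -23.9 kb: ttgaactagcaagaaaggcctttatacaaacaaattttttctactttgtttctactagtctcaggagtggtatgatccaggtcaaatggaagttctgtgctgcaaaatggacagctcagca
BGN +38.6 kb: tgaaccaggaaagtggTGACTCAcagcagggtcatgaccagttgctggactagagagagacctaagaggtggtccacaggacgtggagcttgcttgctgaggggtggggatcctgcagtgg
LUM +12.4 kb: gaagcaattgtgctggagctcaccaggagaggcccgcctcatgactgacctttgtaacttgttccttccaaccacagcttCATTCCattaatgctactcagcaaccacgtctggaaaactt

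The 250 bases before the start of BGN (chrX:152760188-152760437) and HSPG2 (chr1:22263804-22264053) are shown because both are rich in GC boxes and had a peak nearby in some library.
BGN promoter: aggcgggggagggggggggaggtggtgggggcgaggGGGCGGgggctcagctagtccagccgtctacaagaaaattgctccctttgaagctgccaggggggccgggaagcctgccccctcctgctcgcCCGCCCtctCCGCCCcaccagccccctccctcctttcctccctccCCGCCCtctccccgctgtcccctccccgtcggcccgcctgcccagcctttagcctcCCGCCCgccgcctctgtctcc
HSPG2 promoter: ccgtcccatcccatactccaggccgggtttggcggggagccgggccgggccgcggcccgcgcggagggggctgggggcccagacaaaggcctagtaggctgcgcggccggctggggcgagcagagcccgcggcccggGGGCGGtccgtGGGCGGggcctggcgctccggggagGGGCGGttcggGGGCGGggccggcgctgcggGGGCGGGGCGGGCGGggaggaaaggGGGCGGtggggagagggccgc

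Most of these regions lay away from promoters. Of the 43 regions, 21 lay in introns, 14 between genes and 8 within 1 kb of the start of some gene. Only 8 of the 43 (18.6%) had a peak in every library, against 32.1% of all regions, and 18 of the 61 (29.5%) had a peak in a single library, against 26.2% of all. The 8 promoter regions were found in a median of 6 libraries and the 35 others in a median of 4, and medians over all regions are not given. Of these 8, only BGN +0.3 kb and ASPN +1.1 kb lay at a start of the gene they are named for. The 3 found in every library were the promoters of BTG2, MFGE8 and USP48. DCN and LUM are neighbours, and 3 of their regions were shared by both.

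**Figure D1:**
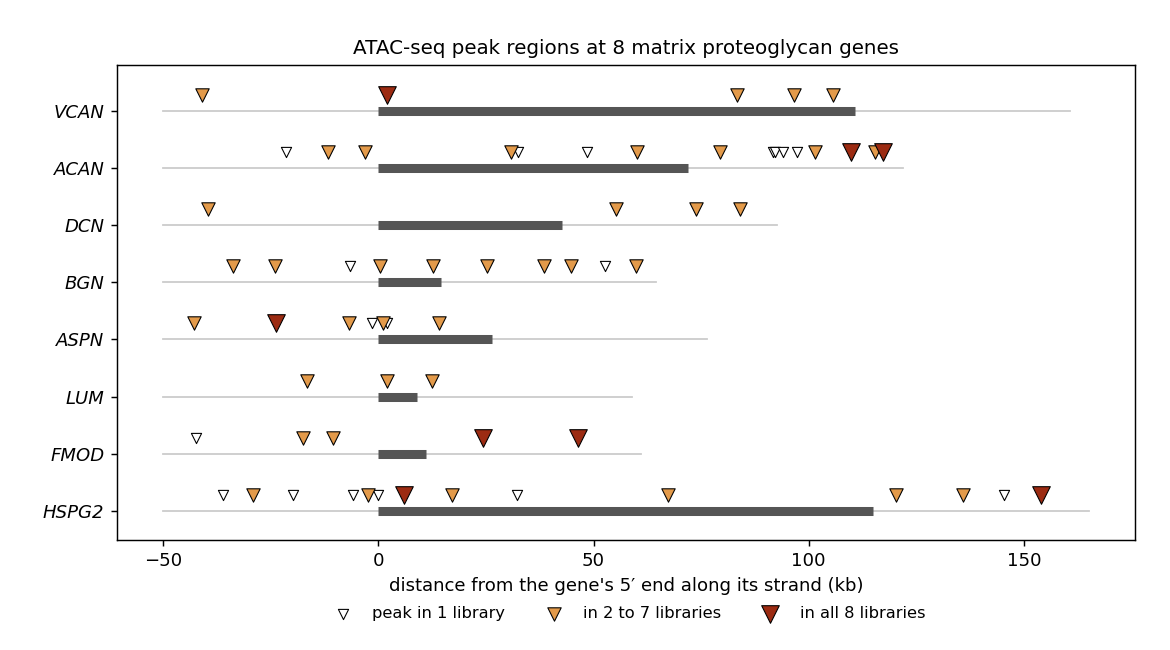
Position of the merged peak regions at each gene, as distance in kb from the gene's 5′ end along its strand. Thick grey bars are gene bodies, thin lines the 50 kb on each side, and triangles are regions, coloured by the number of libraries with a peak. Regions found in all 8 libraries lie at VCAN, ACAN, ASPN, FMOD and HSPG2, and none lie at DCN, BGN or LUM. The 3 regions shared by DCN and LUM appear on both lines.

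The number of peaks was compared between genes per length of window. Over the 8 libraries, the mean was 4.36 peaks per 100 kb at BGN, 3.85 at ACAN, 3.31 at HSPG2, 2.81 at FMOD, 2.77 at ASPN, 1.66 at VCAN, 0.919 at LUM and 0.876 at DCN. The median of all protein-coding genes was 3.16 peaks per 100 kb. BGN thus stood at percentile 70.1 of all genes and DCN at percentile 11.6. The windows hold neighbouring genes too. Of the regions found in at least 2 libraries, the gene body held 2 of 8 at BGN, 2 of 9 at ACAN and 3 of 8 at HSPG2. The values of ASPN and FMOD, and of DCN and LUM, lay side by side, and DCN and LUM share regions.

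The first question was whether the promoters of these genes were open. A promoter peak was one with its summit within 1 kb of an annotated start of the gene. None of the 8 genes (0 of 8) had one in every library, against 46.0% of all protein-coding genes, and 5 of 8 had one in no library, against 27.7% of all. Those 5 were VCAN, ACAN, DCN, LUM and FMOD.

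BGN had a promoter peak in 5 libraries, D2 soft replicate 2, D2 stiff replicate 1, D4 soft replicate 1 and both D4 stiff replicates. Its fold enrichment there, the pileup at the summit over the local background of the same library, was 4.18, 3.31, 3.61, 4.61 and 5.94 in that order. These were low peaks, between percentiles 0.594 and 29.1 of −log10 p in their lists, where 100 is the strongest peak. HAUS7, a gene for a subunit of the augmin complex, has an annotated start 213 bp from the same summit, so the 2 promoters cannot be told apart.

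ASPN had a promoter peak in 3 libraries, D2 stiff replicate 1 and both D4 stiff replicates, with summits 904, 904 and 882 bp from a start. The region around it, ASPN +1.1 kb (chr9:95242944-95243834), also held a peak in D2 stiff replicate 2 and D4 soft replicate 2 with summits farther away. Fold enrichment over the 5 libraries ran from 3.75 in D4 soft replicate 2 to 6.44 in D2 stiff replicate 1. By the 1 kb rule ASPN was thus a D4 stiff promoter, found in both D4 stiff libraries and in neither D4 soft library, a pattern held by 1.53% of all genes. No other presence pattern was held by any of the 8 promoters. D2 stiff-only promoters were 1.45% of all genes, D2 soft-only 0.0992% and D4 soft-only 0.198%. Promoters of the stiff libraries alone were 0.193% and of the soft libraries alone 0.00992%. Promoters found on day 4 only were 1.25% on the soft and 1.16% on the stiff matrix, and those found on day 2 only 0.114% and 0.233%. HSPG2 had a promoter peak only in D4 stiff replicate 2, with its summit 207 bp from the start.

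VCAN was the gene most affected by the width of the promoter. In every library its nearest summit lay 1507 to 1708 bp from an annotated start, so that within 2 kb it had a promoter peak in all 8 libraries. That summit lay in VCAN +2.0 kb in D2 soft replicate 2. In every other library it lay in VCAN +83.3 kb, near an internal start. At that width 1 of the 8 genes had a peak in every library, against 49.3% of all genes, and 3 of 8 (DCN, FMOD and ACAN) had none, against 24.2%. The nearest summit to a start lay at least 18211 bp away in every library for DCN, 10518 bp for FMOD and 3208 bp for ACAN.

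The promoters differed widely in base composition. In the 250 bases before the start, GC content was 82.8% at HSPG2, 77.6% at ACAN and 74.0% at BGN, against a median of 60.8% over all genes. It was 62.0% at VCAN, 44.4% at FMOD, 33.2% at DCN and 32.4% at ASPN. ACAN stood at percentile 92.5 of GC content and had no promoter peak in any library, while ASPN stood at percentile 1.88 and had one in 3. The GC box was matched 8 times at HSPG2, 7 times at ACAN, 5 times at BGN, 1 time at VCAN and 0 times at DCN, ASPN and FMOD, and 51.2% of all promoters held it.

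**Figure D2:**
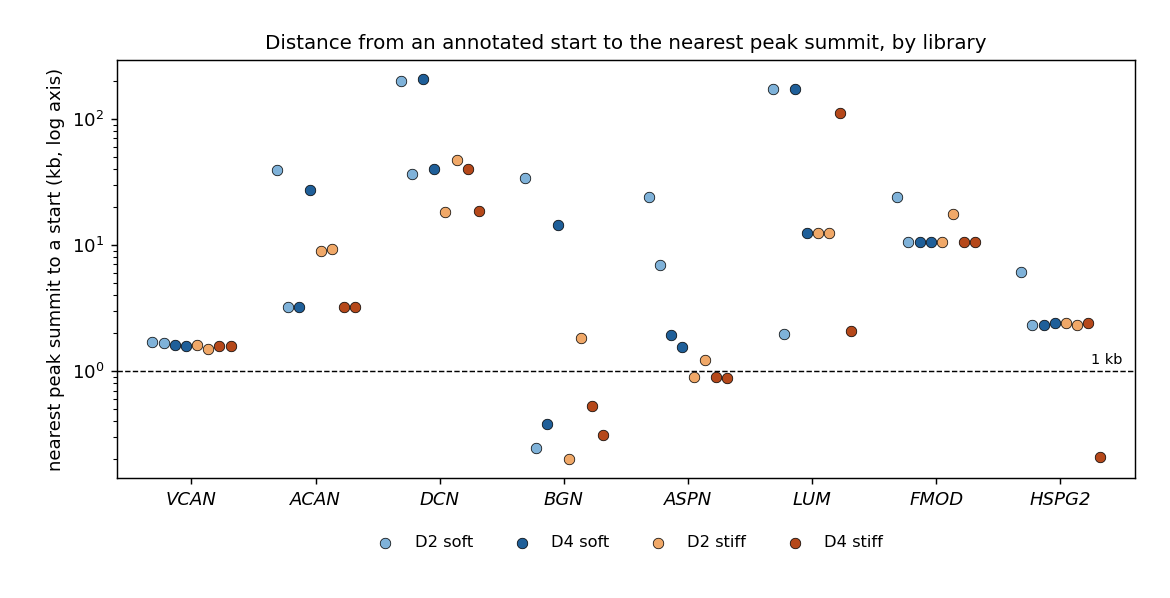
Distance from an annotated start of each gene to the nearest peak summit in each library, in kb on a log axis, with 1 point per library coloured by group and a dashed line at 1 kb. The points of VCAN lie between 1507 and 1708 bp but do not all come from the same region. Those of DCN and LUM spread up to 207620 and 172875 bp. Points under the line are seen for BGN, ASPN and HSPG2.

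VCAN (chr5:82767437-82878122, plus strand) encodes versican and had 5 regions, of which 4 lay in its introns. The region VCAN +2.0 kb (chr5:82768706-82770613), in an intron, was found in all 8 libraries and spanned 1908 bp. Its percentile of −log10 p was 83.5 and 88.5 (D2 soft), 90.7 and 90.0 (D2 stiff), 75.7 and 89.9 (D4 soft) and 82.4 and 78.6 (D4 stiff). It was among the strong peaks of every list. On day 2 both stiff values lay above both soft values, and on day 4 they overlapped. By fold enrichment the same region stood lower, at the percentiles 66.3 and 54.8 (D2 soft), 58.6 and 56.1 (D2 stiff), 33.6 and 58.7 (D4 soft) and 28.7 and 31.1 (D4 stiff).

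Both D4 stiff values lay below all the others by fold enrichment. The difference between days at VCAN +2.0 kb, on normal scores of the ranks, was -0.96 ± 0.35 (SE, limma, D4 minus D2). Its unadjusted p in limma was 0.0106, while 6.91% of all regions had one under 0.05, and its Benjamini-Hochberg adjusted p was 0.653, so that it was not called.

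The other regions of VCAN stood lower by −log10 p and were found in fewer libraries. VCAN +83.3 kb (chr5:82850373-82851246), 1592 bp from an internal start, was missing only from D2 soft replicate 2 and stood between percentiles 9.25 and 60.9. VCAN +96.7 kb (chr5:82863707-82864370) was found in every library except both D2 soft replicates, with percentiles from 45.9 to 57.0. Its fold enrichment was 7.73 and 9.14 (D2 stiff), 8.55 and 7.85 (D4 soft) and 8.29 and 8.28 (D4 stiff). As percentiles of fold enrichment they ran from 53.9 to 65.3 in the 6 libraries that had it, while those of VCAN +2.0 kb ran from 28.7 to 66.3. VCAN +105.7 kb was found in both D4 soft libraries and in 1 library each of D2 stiff and D4 stiff, and VCAN -41.1 kb (chr5:82726038-82726468) in 3 stiff libraries with fold enrichment of 3.84 to 5.61.

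ACAN (chr15:89346667-89418584, plus strand) encodes aggrecan, best known from cartilage, and had 16 regions, of which 7 were found in a single library. Both of its regions found in every library lay outside the gene, and ACAN +79.5 kb lay in an intron of HAPLN3. ACAN +109.9 kb (chr15:89455721-89457043) lay at the promoter of MFGE8, which encodes a secreted milk fat globule protein, with the summit 1 bp from the start. Within the gene body, ACAN +30.9 kb (chr15:89377399-89377869, intron) was missing only from D2 soft replicate 1.

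ACAN +30.9 kb had fold enrichment of 5.61 (D2 soft replicate 2), 4.54 and 7.34 (D2 stiff), 6.79 and 5.00 (D4 soft) and 8.75 and 9.79 (D4 stiff). On day 4 both stiff values lay above both soft values, while the day 2 values overlapped. Fold enrichment compares within a list only, so this order between libraries is a description. Nearer to the start, ACAN -3.2 kb (chr15:89343122-89343699) was found in 1 D2 soft, 1 D4 soft and both D4 stiff libraries.

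DCN (chr12:91534261-91576994, minus strand) and LUM (chr12:91496406-91505271, minus strand) encode decorin and lumican, which bind collagen fibrils, and were the genes with the fewest peaks. DCN had 0 regions in its gene body, and LUM had 1. Their shared region LUM +12.4 kb (chr12:91492791-91493030), named DCN +84.1 kb when counted from DCN, was found in 4 libraries with fold enrichment of 5.76 and 5.59 in D2 stiff, 7.03 in D4 soft replicate 2 and 4.95 in D4 stiff replicate 2. The only value from a soft library was the highest of the 4, though fold enrichment compares within a list only. The other shared regions had peaks in 2 libraries each, 1 of them, LUM +2.0 kb (chr12:91502953-91503305), in an intron of LUM.

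In D2 soft replicate 1 and D4 soft replicate 1 no peak lay in either window, and the nearest summit to a DCN start was 198415 and 207620 bp away. The summit pileup at these regions was 4 to 12 fragments, while the median peak of a list had 10 to 22 and the lowest 3 to 5. None of the regions at DCN and LUM had a peak in more than 4 libraries, so none entered the fit of ranks. D4 stiff replicate 1, with the highest estimated depth, had 0 peaks in the LUM window, and the part of depth in these low counts was not tested.

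BGN (chrX:152760438-152775004, plus strand) encodes biglycan and had 10 regions in a window of 115 kb, with 0 in every library. BGN -24.0 kb (chrX:152735376-152736565), at the promoter of TREX2, an exonuclease gene, was missing only from D2 soft replicate 1. Its fold enrichment was 6.68 (D2 soft replicate 2), 8.49 and 6.46 (D2 stiff), 7.17 and 5.74 (D4 soft) and 8.69 and 10.7 (D4 stiff). On day 4 both stiff values lay above both soft values, and on day 2 the soft value lay between the stiff values. These are values of different lists, and fold enrichment compares within a list only. BGN +12.7 kb (chrX:152772926-152773301), in an intron of BGN, was its strongest distal region in 4 or more libraries, with fold enrichment of 11.4 in D2 soft replicate 2, 10.8 in D2 stiff replicate 2, and 7.89 and 8.37 in D4 stiff.

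BGN +38.6 kb (chrX:152798978-152799270) was the only region found in all 4 stiff libraries but no soft one. That pattern was held by 1 of the 43 regions, against 0.85% of all. The count was 3 without either D2 stiff library and 2 without either D4 soft library. The rule asks for fewer libraries in those settings, so the count can rise by that alone. BGN +38.6 kb lay 665 bp from a start of ATP2B3, which encodes a plasma membrane calcium pump, and holds TGACTCA at -41 bp from its summit. Its fold enrichment was 3.98 and 4.46 in D2 stiff and 4.54 and 4.93 in D4 stiff, on 5, 6, 8 and 8 fragments. These were weak peaks, between percentiles 4.43 and 16.2 of −log10 p, and the region was not found in any library once all lists were cut to the same length.

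ASPN (chr9:95218487-95244788, minus strand) encodes asporin, which binds collagen and TGF-beta, and had 7 regions. ASPN -23.9 kb (chr9:95268285-95269293), in introns of ECM2 and CENPP, was found in every library. It held an AP-1 sequence at 85 bp from its summit on the plus strand, outside the bases shown above. Its percentile of fold enrichment was 88.2 and 78.8 (D2 soft), 64.5 and 65.7 (D2 stiff), 73.8 and 78.1 (D4 soft) and 83.4 and 86.3 (D4 stiff). On day 2 both stiff values lay below both soft values, and on day 4 both lay above. In limma the difference between stiff and soft was -0.97 ± 0.48 (SE) on day 2 and 0.31 ± 0.48 on day 4 on normal scores. The difference between those differences was 1.28 ± 0.68, with an unadjusted p of 0.0694 and a limma adjusted p of 0.92, so that it was not called.

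Near the start, ASPN -6.9 kb (chr9:95251490-95252015) was found in 6 libraries, with fold enrichment of 5.62 in D2 soft replicate 2, 7.06 in D2 stiff replicate 2, 7.10 and 7.16 (D4 soft) and 9.21 and 10.5 (D4 stiff). The D4 stiff values were the highest. As percentiles of fold enrichment within the list they were 66.4 and 74.6, against 25.2 to 55.2 in the others. ASPN +14.1 kb (chr9:95230548-95230826), in an intron, was found in 3 stiff libraries and in no soft library, with fold enrichment of 5.25 in D2 stiff replicate 1, and 6.18 and 8.28 in D4 stiff.

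FMOD (chr1:203309756-203320886, minus strand) encodes fibromodulin and had 5 regions, with 0 in its gene body. FMOD +46.3 kb (chr1:203274183-203275743) was the promoter of BTG2, an antiproliferative gene, 76 bp from its start. FMOD +24.3 kb (chr1:203296131-203297206) lay between genes, 21984 bp from the BTG2 start, and held GGGCGG 3 times. Both were found in every library. The percentile of −log10 p at FMOD +24.3 kb was 80.4 and 64.4 (D2 soft), 55.5 and 76.2 (D2 stiff), 68.0 and 70.8 (D4 soft) and 85.6 and 70.1 (D4 stiff), and these ranges overlapped on each day. FMOD -10.5 kb (chr1:203331175-203331733) was the nearest region to the start, found in 6 libraries with fold enrichment from 7.95 to 13.9 and with an AP-1 sequence at -18 bp from its summit on the plus strand.

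HSPG2 (chr1:22148737-22263803, minus strand) encodes perlecan and had 14 regions. HSPG2 +6.0 kb (chr1:22257447-22258359), in an intron, was, by −log10 p, the highest-ranked distal region of the 8 genes together with VCAN +2.0 kb. By fold enrichment the median percentile was 79.3 at HSPG2 +6.0 kb, 78.4 at ASPN -23.9 kb and 55.5 at VCAN +2.0 kb. Its percentile of −log10 p was 76.6 and 86.9 (D2 soft), 87.0 and 96.2 (D2 stiff), 88.6 and 83.5 (D4 soft) and 90.4 and 91.5 (D4 stiff). On each day both stiff values lay above both soft values, the nearest pair being 87.0 and 86.9 on day 2. By fold enrichment they overlapped on day 4, at 85.3 and 77.1 on the soft against 77.3 and 81.0 on the stiff matrix, and limma gave 0.01 ± 0.34 (SE, stiff minus soft, adjusted p = 0.995).

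3 other regions of HSPG2 were missing from a single library each, HSPG2 -2.5 kb (chr1:22265947-22266564) and HSPG2 +67.3 kb (chr1:22196059-22196791) from D2 soft replicate 1, and HSPG2 +17.0 kb (chr1:22246087-22247232) from D4 soft replicate 2. Fold enrichment at HSPG2 +67.3 kb was 8.14 (D2 soft replicate 2), 10.2 and 8.87 (D2 stiff), 10.4 and 8.83 (D4 soft) and 8.94 and 13.3 (D4 stiff). On day 4 these values overlapped. The D2 soft value lay below both D2 stiff values, though fold enrichment compares within a list only. HSPG2 +154.0 kb (chr1:22108569-22110283), found in every library, was the promoter of USP48, a deubiquitinase gene, 59 bp from its start.

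**Figure D3:**
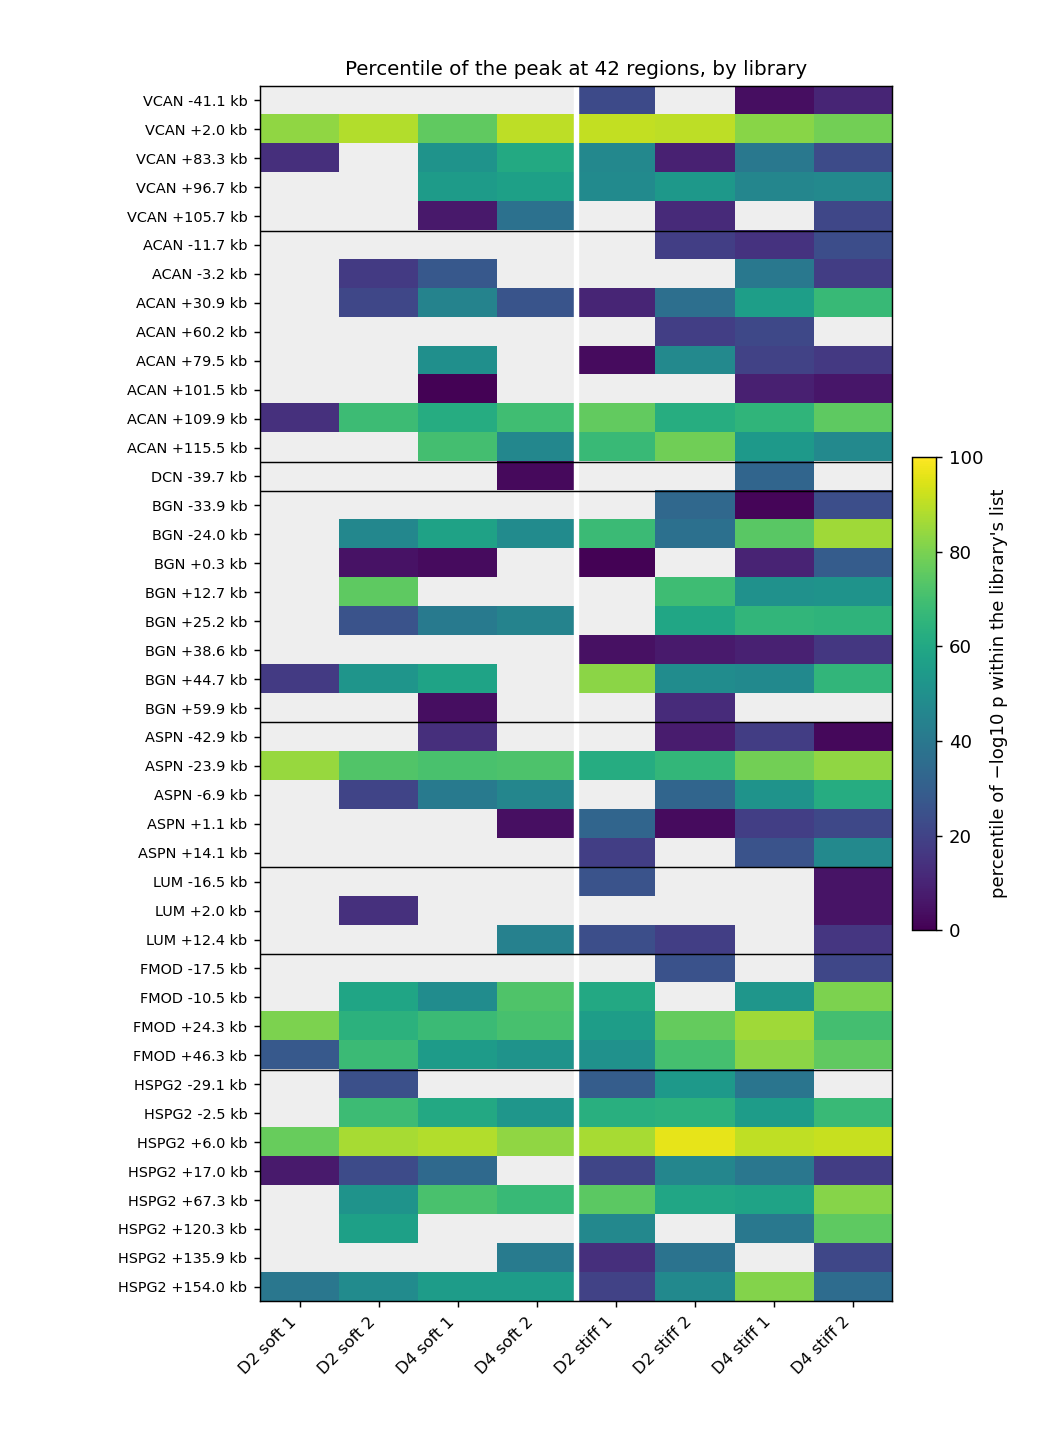
Percentile of −log10 p within the library's list for the peak at 42 of the 43 regions found in at least 2 libraries. Columns are libraries, soft to the left and stiff to the right of the white line, rows are regions named by gene and distance from its 5′ end, and grey cells have no peak. VCAN +2.0 kb and HSPG2 +6.0 kb are bright in all 8 columns, and BGN +38.6 kb has a peak in the 4 stiff columns alone. The 3 regions shared by DCN and LUM are shown under LUM.

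Signal was compared between groups at the 8 regions with a peak in every library. Ranks of fold enrichment within each library were turned into normal scores and fitted with limma over all 24246 such regions, with an adjusted p under 0.05 as the threshold. For stiff against soft, 0 of the 8 regions were called, against 0.00825% of all (2 regions). Within D2, 0 were called against 0.00412% of all, and within D4, 0 against 0.00825%. For D4 against D2 and for the difference between days in the effect of stiffness, 0 of the 8 and 0 of all regions were called. At an unadjusted p under 0.05, 0 of the 8 passed for stiff against soft, against 7.72% of all, 0 within D2, against 7.65%, and 0 within D4, against 5.35%. VCAN +2.0 kb, 1 of the 8, passed for D4 against D2, against 6.91% of all, and 0 passed for the difference between days, against 5.27%.

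**Figure D4:**
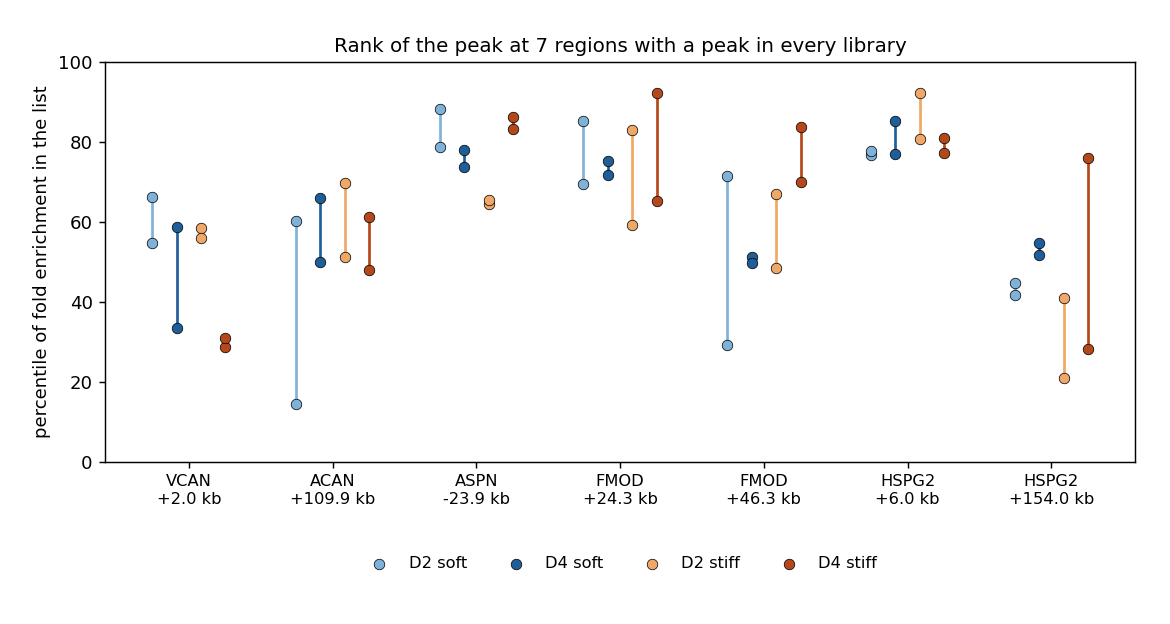
Percentile of fold enrichment within the library's list at 7 of the 8 regions with a peak in every library. Points are libraries, coloured by group, and lines join the 2 replicates of a group. At ASPN -23.9 kb the D2 stiff points lie below the D2 soft points and the D4 stiff points above the D4 soft points, and at VCAN +2.0 kb both D4 stiff points, 28.7 and 31.1, lie below the rest.

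Presence was then compared between groups, counting regions with a peak in both libraries of one group and in neither library of the other. On day 2, 7 of the 43 regions were stiff-only, against 7.45% of all regions, and 0 were soft-only, against 0.391%. The 7 were VCAN +96.7 kb, ACAN +79.5 kb, ACAN +115.5 kb, BGN +38.6 kb, ASPN +1.1 kb, LUM +12.4 kb and HSPG2 +135.9 kb. On day 4, 7 of the 43 were stiff-only, against 6.72%, and 0 were soft-only, against 1.31%. Those were VCAN -41.1 kb, ACAN -11.7 kb, BGN -33.9 kb, BGN +12.7 kb, BGN +38.6 kb, ASPN +14.1 kb and HSPG2 +120.3 kb. BGN +38.6 kb was the only region on both lists, and none of the 43 was found in every soft and no stiff library, against 0.0172% of all. With 2 libraries against 2, the smallest permutation p is 0.33, and these counts were not tested. Leaving out a library makes the rule ask for fewer libraries, so a count can rise by that alone. Without the least deep library, D2 soft replicate 1, there were 8 D2 stiff-only and 2 D2 soft-only regions. The D2 stiff-only count was 12 without D2 soft replicate 2 and 14 without D2 stiff replicate 1, and the D4 stiff-only count was 14 without D4 soft replicate 1. The D4 soft-only count was 1 without D4 soft replicate 2 and 1 without D4 stiff replicate 2. With all lists cut to the 29789 strongest peaks, 1 region was stiff-only and 1 was soft-only on day 2, and 2 and 1 on day 4. Shares over all regions are not given for these settings.

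Between days, 3 of the 43 regions were found in both D4 soft libraries and in neither D2 soft library, against 5.79% of all. They were VCAN +96.7 kb, VCAN +105.7 kb and ACAN +115.5 kb (chr15:89462020-89462445). On the stiff matrix 2 regions were found on day 4 only, ACAN -3.2 kb and ACAN +101.5 kb, against 5.35% of all. The reverse, day 2 only, was held by 0 regions on the soft matrix, against 0.403%, and by 0 on the stiff matrix, against 1.41%. These counts, too, can rise with a library left out because the rule then asks for fewer libraries. On the soft matrix the count of day 4 only was 10 without D2 soft replicate 2 and 7 without either D4 soft library. On the stiff matrix it was 7 and 8 without D2 stiff replicates 1 and 2.

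More of the 43 regions were listed on the stiff side. In 27 (62.8%) a peak was present in more stiff than soft libraries, against 47.5% of all regions, and in 0 the reverse held, against 6.98%. The lists differed in length, and with all lists cut to the same length 20 regions remained, of which 6 (30%) had more stiff libraries and 4 (20.0%) more soft libraries, against 26.8% and 19% of all. Without D2 soft replicate 1, a larger share of stiff than of soft libraries held the peak in 23 of 43 (53.5%), against 33.7% of all, and a smaller share in 8 (18.6%), against 19% of all.

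Peaks per window were compared after scaling to 10000 peaks of each list. BGN had 0.336 and 0.897 peaks per 10000 in D2 soft, 0.675 and 1.10 (D2 stiff), 0.790 and 0.355 (D4 soft) and 1.06 and 1.24 (D4 stiff). Over both days this was 0.594 ± 0.291 (SD, n = 4) on the soft and 1.02 ± 0.241 (SD, n = 4) on the stiff matrix. The groups overlapped on day 2 and not on day 4, and the share of all genes without overlap is not given. The difference on the log2 scale with 0.5 added was 0.50 ± 0.19 (SE, stiff minus soft), with an adjusted p of 0.564 by limma.

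ACAN, with 0.885 ± 0.269 soft and 1.28 ± 0.299 stiff peaks per 10000 (SD, n = 4), HSPG2, with 1.02 ± 0.162 and 1.37 ± 0.162, and ASPN, with 0.465 ± 0.142 and 0.683 ± 0.169, also had higher means on the stiff matrix. Their log2 differences were 0.37 ± 0.14, 0.30 ± 0.12 and 0.29 ± 0.12 (SE), each with a limma adjusted p of 0.564. FMOD had 0.598 ± 0.111 soft and 0.495 ± 0.0417 stiff peaks per 10000 (SD, n = 4), a log2 difference of -0.14 ± 0.12. VCAN gave 0.17 ± 0.16, DCN 0.29 ± 0.19 and LUM 0.28 ± 0.20. With lists of equal length the difference turned to -0.06 at HSPG2 and -0.33 at VCAN and was 0 at FMOD, while it was 0.33 at BGN, 0.27 at ACAN and 0.12 at ASPN.

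None of these differences passed. In the fit over 18895 genes, 0 of the 8 windows were called for stiff against soft, against 0.0% of all, and 0 were called on day 2 alone, on day 4 alone, between days or for the difference between days. At an unadjusted p under 0.05, 4 of the 8 (BGN, ACAN, ASPN and HSPG2) passed for stiff against soft, against 8.62% of all. That count was 1 of 8 without D2 stiff replicate 2, D4 soft replicate 2 or D4 stiff replicate 2, and 1 of 6 with lists of equal length. On day 2 it was 0 of 8, against 9.13%, and on day 4 it was 2 of 8 (BGN and HSPG2), against 3.68%. Between days 2 of 8 passed (ACAN and ASPN, both higher on day 4), against 7.47%, and for the difference between days 0 of 8, against 3.92%. The median difference was 0.29 over the 8 genes and -0.01 over all genes, and it was 0.06 over the 6 genes that could be fitted with lists of equal length. With lists of equal length, limma gave an unadjusted p under 0.05 at 1614 of all 17458 genes. It called 338 of all genes there and 0 of the 6. Without D2 soft replicate 2, BGN was called, at 0.68 with a limma adjusted p of 0.0392, in a fit that called 1684 of 18843 windows.

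**Figure D5:**
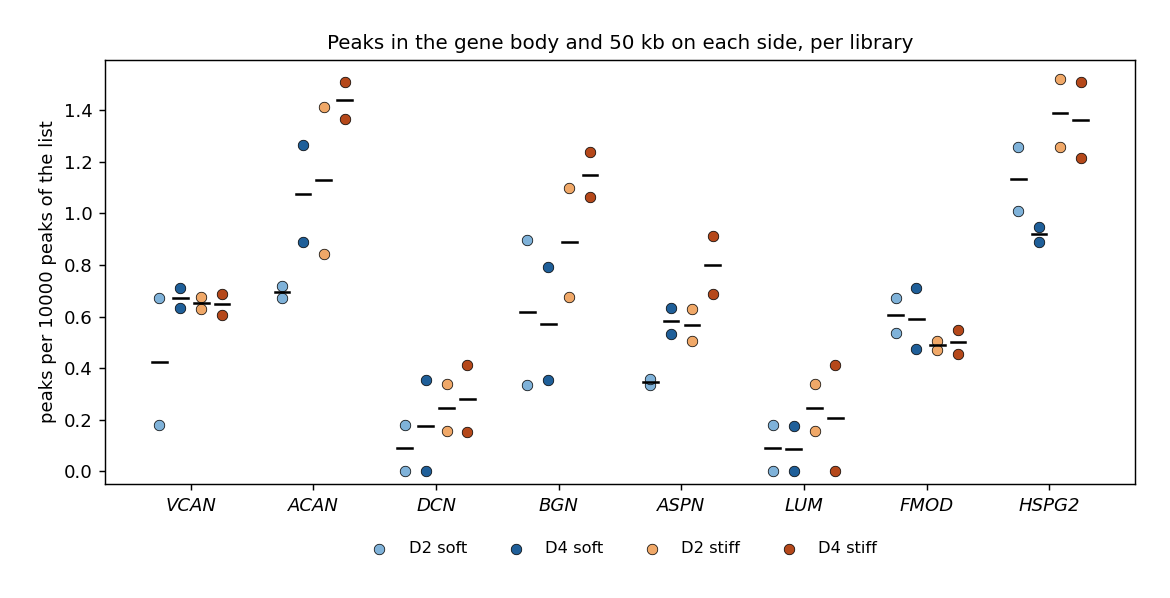
Peaks in the gene body and 50 kb on each side of each gene, per 10000 peaks of the library's list. Points are libraries coloured by group and black bars are group means. On day 4 the stiff points lie above the soft points at ACAN, BGN, ASPN and HSPG2, while the points of FMOD overlap, and DCN and LUM lie lowest with libraries at 0. The share of all genes with such a separation is not given.

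HSPG2 had the most peaks per window, 7.125 on average. The protein-coding genes whose scaled peaks varied most like it over the 8 libraries were FMO2 (Pearson r = 0.98), DIP2A (r = 0.98) and ALS2CL (r = 0.97), out of 18875 genes compared. FMO2 had 0 to 2 peaks and ALS2CL 1 to 9. The libraries share their depth across genes, and 32 genes reached r above 0.9, so these values are a description only.

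The motifs were counted within 100 bp of the summit of each region, a wider stretch than the sequences shown above. TGAGTCA or TGACTCA was present in 15 of the 43 regions (34.9%), against 30.2% of all regions. GGAATG was present in 13 (30.2%), against 19.1%, and GGGCGG in 6 (14.0%), against 16.2%. Of the 13 regions that were stiff-only on either day, 6 (46.2%) held the AP-1 sequence, against 30.3% of the 10062 such regions in the genome, 3 (23.1%) held GGAATG without it, against 16.6%, and 4 (30.8%) held neither, against 53.1%. BGN +38.6 kb, ACAN +79.5 kb, ACAN +115.5 kb, ASPN +1.1 kb, HSPG2 +120.3 kb and HSPG2 +135.9 kb held the AP-1 sequence, and VCAN +96.7 kb, VCAN -41.1 kb and LUM +12.4 kb held GGAATG without it. ACAN -11.7 kb, BGN -33.9 kb, BGN +12.7 kb and ASPN +14.1 kb held neither.

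Promoters of other genes of the proteoglycan system were then counted in the same way. Of 25 genes for the enzymes that build and sulfate glycosaminoglycan chains, 14 had a promoter peak in every library, CHSY1, DSE and NDST1 among them, 11 in some and 0 in none. Of 11 other small leucine-rich genes, 1 (PODNL1) had one in every library, 1 (OGN) in 1 library and 9 in none, OMD, PRELP, KERA and EPYC included. Of 13 membrane proteoglycans, 4 (SDC2, GPC2, GPC5 and CD44) had one in every library, 6 in some and 3 (SDC3, GPC3 and GPC4) in none.

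The smaller lists had few constant promoters. The hyalectan BCAN had a promoter peak in 2 libraries and NCAN in 0, and of the link protein genes, whose products tie hyalectans to hyaluronan, HAPLN2 and HAPLN3 had one in 1 and 2 libraries and HAPLN1 and HAPLN4 in 0. HAS2, a hyaluronan synthase, had one in 6 libraries and HAS1 in 0. AGRN and PRG4 had none, while SPOCK1 and ESM1 had one in every library. Over all 66 genes, 21 had a promoter peak in every library and 18 in none, beside the shares of 46.0% and 27.7% over all genes.

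Patterns by group were rare among these promoters. SDC4, a syndecan, was found in every library except both D2 soft replicates. It was thus D2 stiff-only and, on the soft matrix, found on day 4 only, patterns held by 1.45% and 1.25% of all genes. GPC6, a glypican, was found in both D2 soft libraries and in no other, a D2 soft-only pattern held by 0.0992%. CHST15, a sulfotransferase, was found in both D4 stiff libraries and in neither D2 stiff library, against 1.16% of all genes. It was also found in D2 soft replicate 1 and D4 soft replicate 1.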

How the data were processed

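ATAC-seq peak lists of 8 libraries were used, mapped per the labels to hg19 with Bowtie2 2.4.1 after Trim Galore; the authors called peaks with MACS2 in each library on its own, at a q-value up to 0.05. MACS2 options and Tn5 offsets are not given in the sources used here. Column 7 of each file, as deposited, is a fold enrichment, the ratio between the pileup at the summit and the library's own local background. The −log10 p and −log10 q columns deposited by the authors use that background too, and the deposited score repeats the q-value. The summit offset was used as deposited. These values compare within a list only, so ranks and percentiles within a list were used.

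Depth was estimated from the lists under the MACS2 model: whole-number summit pileups were found for all but 14 of 466883 peaks, within 0.001 of −log10 p. Peaks overlapping by 1 bp were merged, and a region was kept when 2 or more libraries had it. Promoters used GENCODE release 44 on GRCh37. Ranks at 24246 regions, and log2(peaks per 10000 plus 0.5) in windows of 18895 genes with a peak in at least 4 libraries, were fitted with limma 3.58.1 (R 4.3.3), tested on simulated data, with 4 group means and Benjamini-Hochberg adjustment. Other steps used Python 3.11.15 and pysam 0.24.0. Groups came from the labels. Reads, which the study compared with DiffBind and DESeq2, were not used. Named regions were each gene's promoter regions, its best-ranked distal region, those of one group only, and limma calls, and some others were named after their values were seen. The values of 1 region at ACAN and the sequence of 1 promoter are not reported here. The genes and lists were chosen with earlier results of these data known. Alternatives were the list length, q-value, overlap, flank, promoter width, pseudocount, filters, rank measure, a replicate block and leaving out each library.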

Additional observations from a re-analysis of the deposited data

Results flagged for a closer look

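In groups of 4 soft or 4 stiff libraries, 32 sets of values were screened for a library far from the others, and 3 were flagged. Chance flags about 1 in 20 such groups. In the VCAN window, D2 soft replicate 2 had 0.179 peaks per 10000, below 0.632 to 0.710 in the other soft libraries. At ASPN -23.9 kb, D2 soft replicate 1 stood at percentile 84.5 of −log10 p, above 71.4 to 73.0 in the other soft libraries. At ACAN +109.9 kb, the MFGE8 promoter, D2 soft replicate 1 stood at percentile 13.8, below 61.8 to 69.2 in the other soft libraries.

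The difference between stiff and soft at ASPN -23.9 kb had opposite signs on the 2 days, with no overlap of stiff and soft libraries on either. This region was picked by screening the gene windows and the regions with a peak in every library for that pattern. The share of all regions with the pattern is not given. In percentiles of −log10 p, stiff minus soft was -14.7 on day 2 and 9.21 on day 4, a difference of 23.9. In percentiles of fold enrichment it was -18.4 on day 2 and 8.90 on day 4, a difference of 27.3. The limma test of this difference between days, on normal scores of fold enrichment, gave an adjusted p of 0.92.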

How the results depend on the processing

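With lists of equal length, 20 member regions were kept, with 1 D2 stiff-only, 1 D2 soft-only, 2 D4 stiff-only, 1 D4 soft-only, 0 in every stiff and no soft library, with 1 new and 1 lost by day 4 on the stiff matrix (both libraries of a day and neither of the other), and 8 genes had no promoter peak. Shares over all regions and genes are not given for these counts. With lists of equal length, peaks per window turned to -0.0604 at HSPG2 and -0.33 at VCAN (stiff minus soft, log2). With a flank of 10 kb, 20 regions were kept, 2 of them in every library, with 4 D2 stiff-only and 3 D4 stiff-only. There were 0 in every stiff and no soft library, and 1 was found on day 4 only on the stiff matrix. With promoters within 2 kb, 1 gene had a peak in every library and 3 in none. When 50% of a peak had to overlap the best-ranked peak of its region, chosen after seeing the data because the planned rule changes nothing in merged regions, 1 region was D4 soft-only and 5 were new by day 4 on the soft matrix.

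Leaving out each library in turn gave 7 to 14 D2 stiff-only regions (14 without D2 stiff replicate 1, 12 without D2 soft replicate 2), 0 to 2 D2 soft-only (2 without D2 soft replicate 1), 7 to 14 D4 stiff-only (14 without D4 soft replicate 1), 0 to 1 D4 soft-only and 1 to 3 in every stiff and no soft library (3 without either D2 stiff library). Between days it gave 3 to 10 new regions (10 without D2 soft replicate 2) and 0 to 4 lost ones (4 without D2 soft replicate 1) on the soft matrix, and 2 to 8 (8 without D2 stiff replicate 2) and 0 to 2 (2 without D4 stiff replicate 2) on the stiff matrix. It gave 8 to 12 regions in every library (12 without D2 soft replicate 1), and 0 to 1 called windows for stiff against soft, the latter BGN without D2 soft replicate 2.

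Small uncalled rank differences changed sign, HSPG2 +6.0 kb (range -0.15 to 0.18) to -0.08, -0.07, -0.15 and -0.02 without replicate 2 of D2 soft, D4 soft, D2 stiff and D4 stiff, FMOD +24.3 kb (-0.46 to 0.22) to 0.11 without D2 soft replicate 1, 0.11 without D2 stiff replicate 1 and 0.22 without D4 stiff replicate 2, and ACAN +109.9 kb (-0.16 to 0.39) to -0.16, -0.03 and -0.04 without replicate 1 of D2 soft, D2 stiff and D4 soft. VCAN peaks per window ranged from -0.0277 to 0.365, the lowest without D2 soft replicate 2. The causes were not tested.

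With the replicate block, 0 member regions and 0 member windows were called in every contrast. Deviations of libraries with the same number in the labels correlated between -0.0414 and 0.0837, so the numbers were not treated as pairs. The deposited peak names carry other replicate numbers for some libraries, and pairing by those was not tested. Summits at DCN and LUM regions held at most 12 fragments, and the part of depth in this was not tested.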
